A study of Mus musculus with 37 samples.

Results

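Barx2 and Barx1, homeobox genes related to BarH of the fruit fly, are 2 of the 25239 gene symbols in a count table from 37 embryonic hearts. They were taken by symbol, and Barx2 was picked because earlier results of the same table placed it among the genes that differed most between double_het and wild-type and between double_het and Isl1_het hearts. The wild-type, Isl1_het and double_het values of Barx2 thus entered the choice, and each of its comparisons uses at least 1 of these groups, so all of them are given as values without a test. Barx1 was added as its relative, and none of its comparisons was used in the choice.

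Total RNA of whole hearts from embryos at E10.5 was sequenced in bulk. Fathers carried Stra8-iCre and one floxed Nipbl allele, so that their sperm held either the intact floxed allele or the null FIN allele, and mothers carried Cre in one Isl1 allele, which leaves a single working Isl1 copy. The groups are called wild-type (Nipbl +/+; Isl1 +/+, n = 10), Isl1_het (Isl1 +/-, n = 9), Nipbl_het (Nipbl +/-, n = 9) and double_het (Nipbl +/-; Isl1 +/-, n = 9). Nipbl loads cohesin, the ring complex that folds chromosomes into loops, and Isl1 is a transcription factor of cardiac progenitor cells. The null Nipbl allele is present in the whole embryo and not only in the heart, and Isl1_het and double_het embryos carry the Cre allele of Isl1. Which embryos inherited Stra8-iCre is not given in the labels. Each library also carries a set number in its label (1, 2, 5, 6 or 7). Its meaning is not spelled out there, and the labels do not say whether embryos of a genotype share a litter, so the p-values measure the spread between these libraries.

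Homeobox genes encode transcription factors that bind DNA through a conserved helical domain, the homeodomain. Barx1 is best known from the mesenchyme of the pharyngeal arches, where it takes part in molar tooth patterning, and from the mesenchyme of the developing stomach, where it restrains Wnt signals by way of the secreted inhibitors Sfrp1 and Sfrp2. Barx2 is known from epithelia, craniofacial tissue, cartilage and skeletal muscle, where it acts on cell adhesion genes and with myogenic factors. Neither gene is a standard marker of a heart cell type. In bulk tissue, more cells of a type and more RNA per cell cannot be told apart.

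Barx2 (ENSMUSG00000032033.11) lies at chr9:31846044-31913462 on the minus strand of GRCm38, with 4 exons and 1968 exon bases in GENCODE M21. Barx1 (ENSMUSG00000021381.4) lies at chr13:48662998-48666507 on the plus strand, with 4 exons and 1399 exon bases. The homeoboxes are shown because they are the stretch in which 2 related genes could share reads; both were read 5′ to 3′ from the GENCODE M21 transcripts, and capitals mark the bases at which they differ.
Barx2: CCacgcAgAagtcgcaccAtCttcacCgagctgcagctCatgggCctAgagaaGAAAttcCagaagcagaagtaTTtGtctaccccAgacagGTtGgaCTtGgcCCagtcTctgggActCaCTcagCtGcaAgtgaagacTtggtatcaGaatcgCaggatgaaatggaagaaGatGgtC
Barx1: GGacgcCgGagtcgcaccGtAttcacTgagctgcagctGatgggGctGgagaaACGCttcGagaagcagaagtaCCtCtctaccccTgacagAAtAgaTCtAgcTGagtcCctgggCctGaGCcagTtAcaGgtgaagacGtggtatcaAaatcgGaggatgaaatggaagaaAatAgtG
Of the 180 homeobox bases 41 differ, 28 of them at the third position of a codon, and 8 of the 60 codons encode another residue. The longest run that the full coding sequences share is 17 bases. Exon bases outside the coding sequences were not compared. Barx1 overlaps no other annotated gene, and Barx2 is overlapped on the other strand by Gm31497, with 0 exon bases in common. The strand setting of the counting is not given in the sources used here.

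Total counts ran from 23.4 to 51.0 M (mega-counts) per library, with a median of 36.2 M. The hearts expressed the cardiac muscle genes strongly, with 23716 to 37901 CPM (counts scaled to library size by TMM) summed over 8 cardiomyocyte markers. Nipbl was below every wild-type library in 8 of 9 Nipbl_het libraries. The exception, the library labelled Nipbl_het replicate 2, held 72.4 CPM of Nipbl, inside the wild-type range of 47.6 to 78.8 CPM, and it also stood apart on the first principal component. In double_het hearts Nipbl was likewise below every wild-type library in 8 of 9 libraries. Double_het replicate 2, at 51.5 CPM, lay inside the wild-type range. Isl1 counts did not check the Isl1_het label, since the level did not separate from wild-type (log2 change -0.20, SE 0.18, adjusted p = 0.877, edgeR). Nipbl_het replicate 9 stood apart in another way: liver markers summed to 393 CPM there, against 22.9 CPM in the next highest library. Several results that rest on Nipbl_het replicate 2 or 9 are given with and without that library, while the marker list levels by genotype include both.

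Barx2 was higher in both genotypes with a single working Nipbl allele. In wild-type hearts it ranged from 1.00 to 3.17 CPM with a median of 1.51, and in Isl1_het hearts from 0.672 to 2.33 CPM with a median of 1.60. In Nipbl_het hearts it ranged from 2.67 to 5.84 CPM with a median of 3.25, and in double_het hearts from 3.41 to 7.69 CPM with a median of 5.00. Wild-type and Isl1_het hearts overlapped, with 3 of 9 Isl1_het libraries below every wild-type library, and Nipbl_het and double_het hearts lay above most or all of them. The group means, from the lowest, were 1.48 ± 0.595 CPM for Isl1_het, 1.76 ± 0.625 CPM for wild-type, 3.77 ± 1.07 CPM for Nipbl_het and 4.94 ± 1.28 CPM for double_het (± SD; n = 10 in wild-type and 9 in the others). Raw counts behind these values ran from 20 in wild-type replicate 7 to 295 in double_het replicate 3, so the gene was measured at low depth in every heart.

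**Figure D1:**
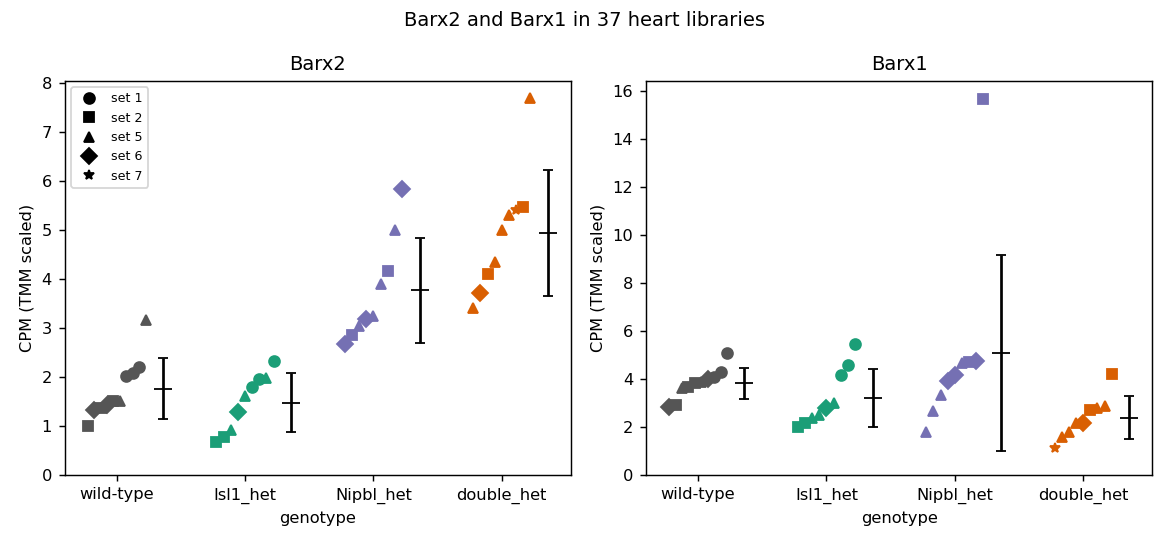
Barx2 (left) and Barx1 (right) in CPM on a linear axis, with 1 point per library, grouped by genotype and shaped by set number; bars give the mean ± SD. All 9 double_het points of Barx2 lie above all 10 wild-type points, and 1 Nipbl_het point of Barx1 lies at 15.7 CPM, far above the rest.

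Nipbl_het hearts held 2.38 times as much Barx2 as wild-type hearts in the fit with genotype and set (log2 change 1.25, SE 0.20, quasi-likelihood fit of edgeR). All 9 Nipbl_het libraries were above the wild-type mean and 6 of 9 were above every wild-type library. The wild-type libraries are the same as in the comparison that singled the gene out, so this is a description. Without the library labelled Nipbl_het replicate 2 the log2 change was 1.21, and without Nipbl_het replicate 9 it was 1.17. The difference had the same direction in each set that held both genotypes, at 1.40 in set 2, 0.75 in set 5 and 1.38 in set 6 on the log2 CPM scale.

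In double_het hearts, 9 of 9 libraries were above every wild-type and every Isl1_het library, a separation in this direction shown by 0.326% and 0.186% of all genes, and since the gene was chosen on these comparisons nothing is read from it. The fitted log2 change was 1.58 (SE 0.20) against wild-type and 1.94 (SE 0.21) against Isl1_het. Nipbl_het and Isl1_het hearts did not overlap in Barx2 either: 9 of 9 Nipbl_het libraries were above every Isl1_het library, which 0.106% of genes showed in that direction. The Isl1_het values also entered the choice of the gene, so nothing is read from this either.

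The differences of Barx2 that came with the Isl1 genotype were smaller in size than the one of Nipbl_het against wild-type. Isl1_het minus wild-type was -0.35 on the log2 scale (SE 0.19), and 5 of 9 Isl1_het libraries were below the wild-type mean. Double_het minus Nipbl_het was 0.33 (SE 0.19), and 1 of 9 double_het libraries was above every Nipbl_het library. The interaction, the part of the double_het change not given by adding the single changes, was 0.69 (SE 0.27). It is built from the double_het, Isl1_het and wild-type values on which Barx2 was chosen, so nothing is read from it.

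Barx1 followed another order. It ranged from 2.84 to 5.07 CPM in wild-type hearts with a median of 3.83, and from 1.98 to 5.43 CPM in Isl1_het hearts with a median of 2.79. It ranged from 1.80 to 15.7 CPM in Nipbl_het hearts with a median of 4.18, and from 1.12 to 4.22 CPM in double_het hearts with a median of 2.17. All genotypes overlapped, and 7 of 9 double_het libraries were below every wild-type library. The group means, from the lowest, were 2.38 ± 0.904 CPM for double_het, 3.22 ± 1.21 CPM for Isl1_het, 3.81 ± 0.641 CPM for wild-type and 5.08 ± 4.10 CPM for Nipbl_het (± SD; n = 10 in wild-type and 9 in the others). The high Nipbl_het mean came from replicate 9: over the other 8 libraries it was 3.75 ± 1.07 CPM (SD, n = 8), beside the wild-type mean.

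No Barx1 comparison passed the test (Benjamini-Hochberg over 15046 genes). No gene at all passed with edgeR in Isl1_het minus wild-type, double_het minus Nipbl_het or the interaction (0% of genes in each); there unadjusted p-values under 0.05 numbered 886, 1355 and 411, and DESeq2 called 11, 0 and 0 genes. The lowest p was that of double_het minus Nipbl_het, at a log2 change of -0.92 (SE 0.25, unadjusted p = 0.000676, adjusted p = 0.412, edgeR), with 9 of 9 double_het libraries below the Nipbl_het mean of 5.08 CPM. Without Nipbl_het replicate 9 this change was -0.55, and double_het replicate 8, at 4.22 CPM, lay above the remaining mean of 3.75 CPM. Nipbl_het minus wild-type was 0.59 (SE 0.23, adjusted p = 0.207) and 0.20 without replicate 9. Double_het minus wild-type was -0.33 (SE 0.25, 95% interval -0.84 to 0.18, adjusted p = 0.682), and Isl1_het minus wild-type was -0.26 (SE 0.23, adjusted p = 0.871). Double_het minus Isl1_het was -0.07 (SE 0.26, adjusted p = 1.00), and the interaction was -0.66 (SE 0.33, adjusted p = 0.999), which was -0.26 without Nipbl_het replicate 9.

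**Figure D2:**
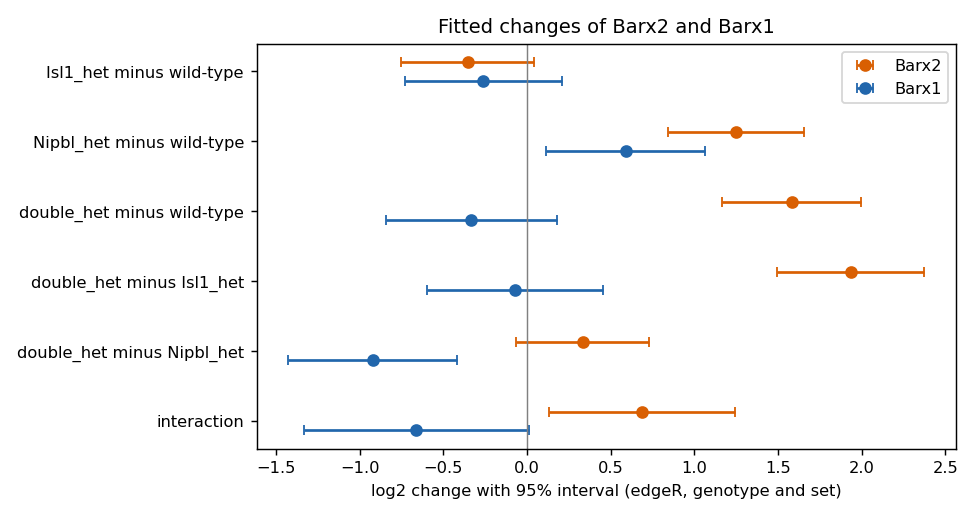
Log2 changes of Barx2 and Barx1 (horizontal axis) with 95% intervals from the edgeR fit with genotype and set, for 6 comparisons; those of Barx2 are a description, since its choice used these libraries. Barx2 lies to the right of 0 in both comparisons of a Nipbl-deficient group with wild-type (1.25 and 1.58), where Barx1 has 0.59 and -0.33.

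Levels of Barx1 differed between sets. Of the 6 libraries in set 1, 3 were wild-type, 3 were Isl1_het and none had lost a Nipbl allele. There Barx1 ranged from 4.06 to 5.43 CPM, above all 13 other libraries of those genotypes (1.98 to 4.01 CPM). Barx2 in set 1 ranged from 1.79 to 2.33 CPM, inside the 0.672 to 3.17 CPM of the other 13. Leaving the set term out made the Barx1 change of double_het minus wild-type -0.68 in place of -0.33, and within sets 2, 5 and 6 it was -0.03, -0.76 and -0.62 on the log2 CPM scale. The Barx1 difference of Nipbl_het minus wild-type was 1.31, -0.34 and 0.33 in sets 2, 5 and 6 and so had no common direction. Without Nipbl_het replicate 9 that of set 2 was 0.44, which leaves 1 Nipbl_het library there, and without the library labelled Nipbl_het replicate 2 that of set 5 was -0.11.

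Per kilobase of exon, Barx1 was the higher of the pair in all 10 wild-type and all 9 Isl1_het hearts. The log2 ratio of Barx2 to Barx1 in CPM per kilobase was -1.66 ± 0.44 in wild-type (SD, n = 10) and -1.66 ± 0.35 in Isl1_het hearts (SD, n = 9). It was -0.70 ± 0.94 in Nipbl_het hearts (SD, n = 9), with Barx2 the higher in 2 of 9. The lowest Nipbl_het ratio was that of replicate 9 (-2.41) and the highest that of the library labelled replicate 2 (0.98); without both the mean was -0.70 ± 0.48 (SD, n = 7), with Barx2 the higher in 1 of 7. In double_het hearts it was 0.62 ± 0.79 (SD, n = 9), and Barx2 was the higher in 7 of 9. The 2 genes thus changed rank between genotypes. In level per kilobase, Barx2 stood at the 23.8th percentile of 14765 genes in wild-type and the 37.8th in double_het, and Barx1 at the 40.5th and the 31.0th. The ratio inherits the selection of Barx2 and was not tested.

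The chromosomal neighbours were examined because each gene sits among others that could have moved with it. Within 1 Mb of Barx2, 47 other genes are annotated, of which 15 were in the count table. Gm31497, which overlaps Barx2, was not among the 15. Of these 15 genes 12 passed the filter on low counts, and 0 passed the test in Nipbl_het or double_het against wild-type, beside 1.71% and 2.6% of all genes. Their log2 changes ran from -0.38 to 0.10 in Nipbl_het and from -0.25 to 0.19 in double_het. The nearest tested gene, Arhgap32, 203 kb away, had -0.08 and -0.06. Fli1 and Ets1, endothelial transcription factors of the ETS family, had 0.10 and -0.04 in Nipbl_het. Within 1 Mb of Barx1, 41 other genes are annotated, of which 27 were in the count table. Of these 27 genes 19 were tested and 0 passed in those comparisons. The nearest tested gene, Ptpdc1, 37.3 kb away, had 0.09 and 0.03, and the highest was Susd3 in Nipbl_het at 1.39 (adjusted p = 0.0619, edgeR).

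**Figure D3:**
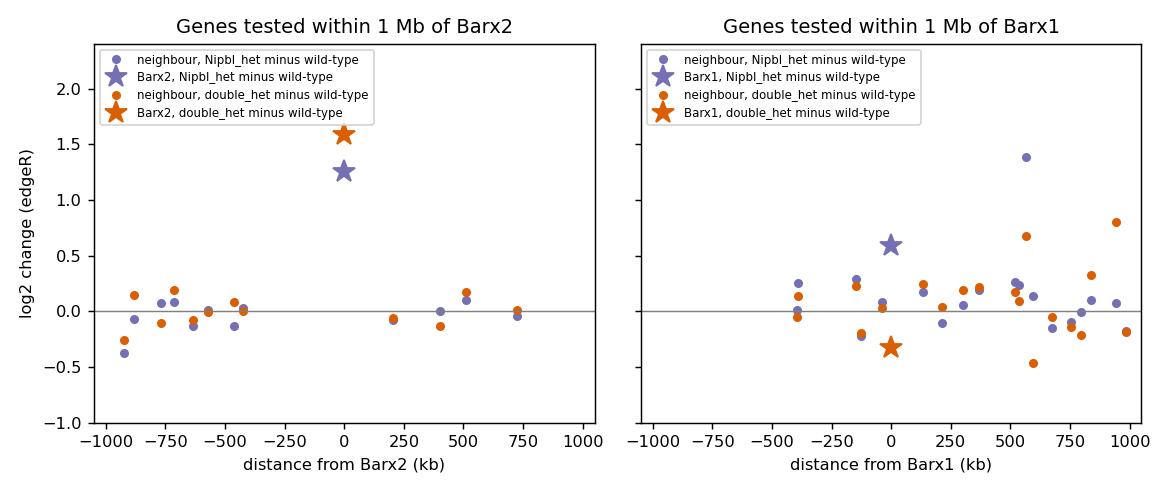
Log2 changes against wild-type (vertical axis) of the tested genes within 1 Mb of Barx2 (left) and Barx1 (right), by distance in kb; stars mark Barx2 and Barx1 themselves and colours the genotype. The 12 neighbours of Barx2 lie between -0.38 and 0.19, and Barx2 at 1.25 and 1.58.

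Most related homeobox genes were below the filter in these hearts. Of 40 genes of the NK-like homeobox class, to which Barx1 and Barx2 belong, 10 passed the filter on low counts. One rose in Nipbl_het and none fell, beside 1.2% and 0.518% of all genes, and none passed in double_het against wild-type. The gene that rose was Hlx, a homeobox gene of visceral mesenchyme. Hlx ranged from 0.267 to 4.45 CPM in wild-type hearts with a median of 1.20, and from 1.24 to 13.2 CPM in Nipbl_het hearts with a median of 3.28. Its groups overlapped, and its highest value was in Nipbl_het replicate 9. Hlx was 3.20 times as high in the fit (a log2 change of 1.68 with an SE of 0.45; adjusted p = 0.0449 in edgeR), and without replicate 9 it was 1.39 and no longer passed (adjusted p = 0.142); in all, the call was lost on leaving out any of 26 of the 37 libraries. The median log2 change of the 10 genes was 0.16 in Nipbl_het, beside 0.01 over all genes, and 0.17 in double_het, beside -0.00.

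Genes known as inducers, partners or reported targets of the Barx factors were also counted. Of 20 such genes 18 were tested: 1 rose and 1 fell in Nipbl_het against wild-type (1.2% and 0.518% of all genes), 0 rose and 2 fell in double_het against wild-type (1.77% and 0.824%), and 1 fell in double_het against Isl1_het, where 0.957% of all genes passed in either direction and 0.425% fell. The gene that rose in Nipbl_het was Isl1 itself (log2 change 0.79, SE 0.19, adjusted p = 0.0252, edgeR). That call was lost without wild-type replicate 4, 6, 8 or 9 or Nipbl_het replicate 9 (adjusted p up to 0.0740, changes of 0.72 to 0.74). Those that fell were Acan, the cartilage proteoglycan aggrecan, and Lef1, a nuclear effector of Wnt signalling. Acan had medians of 1.44 CPM in wild-type, 1.70 in Isl1_het, 0.765 in Nipbl_het and 0.641 in double_het hearts. Its range in double_het hearts was 0.226 to 1.08 CPM, which overlapped the wild-type range of 0.801 to 2.98 CPM.

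The log2 change of Acan was -1.19 in Nipbl_het (SE 0.28, adjusted p = 0.0162, edgeR) and -1.55 in double_het (SE 0.29, adjusted p = 0.00183), both against wild-type. Against Isl1_het it was -1.59 in double_het (SE 0.29, adjusted p = 0.00283). The Nipbl_het call was lost without wild-type replicate 5 (-1.06, adjusted p = 0.0559). Lef1 ranged from 13.0 to 23.4 CPM in wild-type hearts with a median of 16.9, and from 8.58 to 16.0 CPM in double_het hearts with a median of 10.7. Its log2 change was -0.51 in double_het (SE 0.12, adjusted p = 0.0103, edgeR) and -0.32 in Nipbl_het (SE 0.11, adjusted p = 0.133). Sfrp1 and Sfrp2, the Wnt inhibitors that Barx1 induces in the stomach, had log2 changes of 0.11 and 0.19 in Nipbl_het and 0.02 and -0.04 in double_het. The median over the 18 genes was -0.01 in Nipbl_het and -0.05 in double_het, beside 0.01 and -0.00 over all genes.

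The next comparison asked which genes varied with Barx2 among hearts of one genotype. Genotype and set were removed from log2 CPM (prior count 2), and the residuals were correlated over 37 libraries, of which double_het replicate 2, alone in set 7, has a residual of 0 by construction. The highest correlation was that of Dguok, a mitochondrial deoxyguanosine kinase (r = 0.75, Spearman's rho = 0.72, permutation p = 1e-05 and 2e-05, of which 1e-05 is the smallest that 100000 permutations can give; adjusted p = 0.0283 over 15045 genes, limma). Dguok was picked for its r on these same residuals, so its permutation p-values are a description and no test. Within genotypes its r was 0.77 in wild-type, 0.88 in Isl1_het, 0.81 in Nipbl_het and 0.59 in double_het. Within sets 1, 2, 5 and 6 it was 0.39, 0.53, 0.88 and 0.82. Without wild-type replicate 4 and Nipbl_het replicate 8, the hearts with Barx2 farthest from the middle, r was 0.65. In the edgeR fit with genotype and set, Dguok itself had log2 changes of 0.03 in Nipbl_het and -0.01 in double_het against wild-type (adjusted p = 0.868 and 0.977). Its median CPM, with no account of set, was 17.9 in wild-type, 16.8 in Isl1_het, 16.1 in Nipbl_het and 14.9 in double_het hearts, with overlapping ranges.

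After Dguok came Cerox1, a noncoding RNA tied to mitochondrial complex I, then Smco4, the sulfotransferase gene Sult5a1, the endoplasmic reticulum cargo receptor gene Cnih1 and Pafah1b3, a subunit of platelet-activating factor acetylhydrolase. Eid1, an inhibitor of differentiation that binds EP300, Sra1, the steroid receptor RNA activator gene, Phgdh, the first enzyme of serine synthesis, and Rab34, a small GTPase of cilia formation, completed the 10 highest. Their r ran from 0.67 for Rab34 to 0.71 for Cerox1. The 5 lowest were Vps33a, a subunit of the lysosomal tethering complexes (r = -0.73), Ap1b1, a subunit of the clathrin adaptor AP-1 (-0.71), Tbc1d9 (-0.71), Prkdc, the catalytic subunit of the DNA repair kinase DNA-PK (-0.70), and Armh3 (-0.70). None of these 15 genes passed the test in Nipbl_het or double_het against wild-type, beside 1.71% and 2.6% of all genes, so nothing is read from that count. Since they were picked for an extreme r of the same sign in each genotype, their r is a description. The weakest of the 15 was 0.60 in size with 1 library left out and 0.43 without set 5. With only genotype removed it was 0.36, and Dguok had 0.39; 328 genes then passed the test, among them 9 of the 15 and 73 of the 239 genes that passed with the set also removed.

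**Figure D4:**
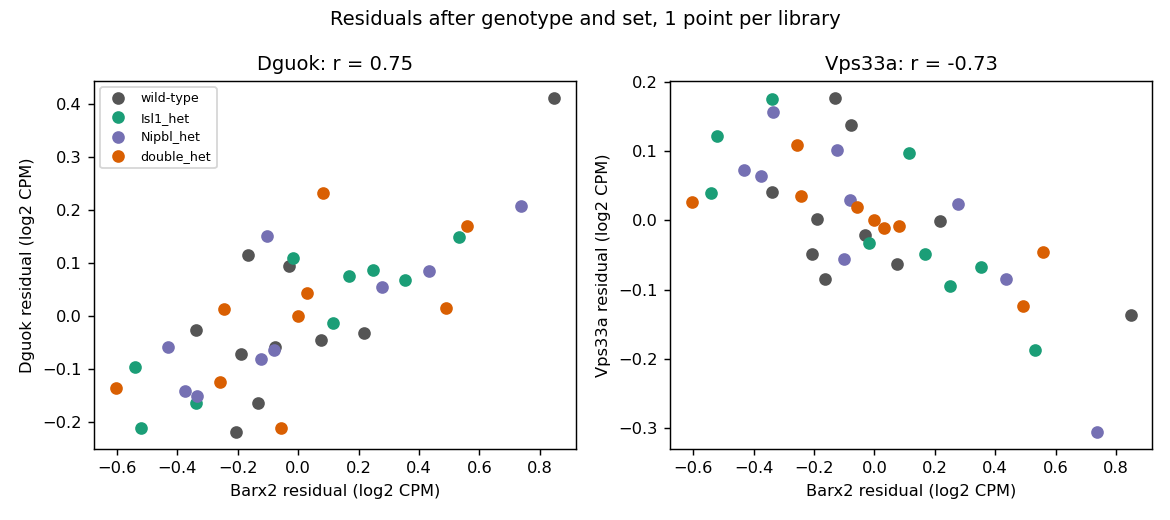
Residuals of log2 CPM after removal of genotype and set, Barx2 on the horizontal axis against Dguok (left) and Vps33a (right), with 1 point per library coloured by genotype. Over all points r is 0.75 and -0.73; slopes were not compared between genotypes. The wild-type point at 0.85 on the Barx2 axis is replicate 4.

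The number of genes that followed Barx2 was unstable. In all libraries 115 genes (0.764%) passed as positive and 124 (0.824%) as negative, 239 together. Without wild-type replicate 4, Nipbl_het replicate 5 or Nipbl_het replicate 8 the number was 0, which includes the 15 leading genes, and without the library labelled Nipbl_het replicate 2 it was 2653. Leaving out 23 of the 37 libraries, one at a time, moved it by more than 1.5 times. Gene length moved with it: the median exon length was 1958 bases for the positive and 8121 bases for the negative genes, against 4343 bases for all genes tested. An index of short minus long genes (mean log2 CPM of the 25% of genes with the shortest exon length minus that of the 25% with the longest) correlated with Barx2 at r = 0.42 (Spearman's rho = 0.27, permutation p = 0.00998 and 0.108), and at r = 0.11 without the 2 libraries farthest from the Barx2 median. With this index also removed, 199 positive and 98 negative genes passed, with median exon lengths of 4251 and 4448 bases, and 62 of them were among the 239. Dguok then had r = 0.69 and Ap1b1 r = -0.72.

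Over the residuals pooled from all genotypes, the targeted genes and Barx1 did not follow Barx2. The r was -0.17 for Nipbl (rho = -0.21, permutation p = 0.321 and 0.214; adjusted p = 0.603, limma), -0.09 for Isl1 (rho = -0.16, permutation p = 0.604 and 0.358; adjusted p = 0.814) and 0.24 for Barx1 (rho = 0.23, permutation p = 0.157 and 0.164; adjusted p = 0.431). Without the library labelled Nipbl_het replicate 2 the r of Nipbl was -0.45 (adjusted p = 0.0615). By genotype, in the order wild-type, Isl1_het, Nipbl_het and double_het, r was 0.32, 0.77, 0.25 and -0.44 for Barx1. In the same order it was -0.71, -0.39, -0.05 and 0.19 for Nipbl, and -0.71, 0.58, 0.01 and -0.13 for Isl1. The direction thus differed between genotypes, and the values by genotype were not tested. For Barx1 the leading genes were the liver apolipoprotein gene Apoa2 (r = 0.77), Podxl2, Efna4, 6330403K07Rik and Shf (0.66). Apoa2 had r = 0.48 without Nipbl_het replicate 9. The 1752 genes that passed with Barx1 (4.69% positive and 6.96% negative) dropped to 1, Apoa2, without the library labelled Nipbl_het replicate 2. They numbered 5326 without Nipbl_het replicate 9 and 0 with the length index removed, an index that correlated with Barx1 at r = 0.41 (rho = 0.41, permutation p = 0.0152 and 0.0114).

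Marker lists of 13 cell types were set beside both genes, as 26 correlations of residuals. None passed for Barx2 in all libraries. Its r was 0.22 with the 8 epicardial and mesothelial markers (adjusted p = 0.427), 0.15 with the 10 foregut and pharyngeal endoderm markers (adjusted p = 0.642) and -0.14 with the 8 surface epithelium markers (adjusted p = 0.642), by permutation. The lowest was -0.37 with endocardium and endothelium (adjusted p = 0.101) and the highest 0.32 with neural crest and neurons (adjusted p = 0.168). Without the library labelled Nipbl_het replicate 2 the r with the neural crest and neuron list was 0.54, which passed (adjusted p = 0.0166), while without the 2 libraries farthest in Barx2 it was 0.11. With only genotype removed 4 lists passed with Barx2: neural crest and neurons (0.55, adjusted p = 0.0065), cardiomyocytes (0.41, adjusted p = 0.0483), endocardium and endothelium (-0.41, adjusted p = 0.0483) and surface epithelium (-0.44, adjusted p = 0.0473). Between genotypes the epicardial list was highest in double_het, as Barx2 was, but its median in Isl1_het (498 CPM) was near that in Nipbl_het (506 CPM), where Barx2 was higher; the medians were 412 CPM in wild-type and 636 CPM in double_het. Its summed level ran from 262 to 464 CPM in wild-type, 308 to 554 in Isl1_het, 407 to 616 in Nipbl_het and 520 to 676 in double_het hearts, and 1 of its 8 genes rose in Nipbl_het and 5 in double_het against wild-type (1.2% and 1.77% of all genes). Wt1, the transcription factor of the epicardium, rose in both, by 0.31 (adjusted p = 0.0178, edgeR) and 0.53 (adjusted p = 6.05e-05) on the log2 scale; its Nipbl_het call was lost without Nipbl_het replicate 9 or wild-type replicate 4 or 5 (adjusted p up to 0.0515, changes of 0.28 to 0.29). The uroplakin genes Upk3b and Upk1b, Sema3d and Tbx18 rose in double_het by 0.38 to 0.73, and the calls of Upk1b and Tbx18 were lost on leaving out any of 15 and 2 libraries. The part of the epicardium in the Barx2 difference was not tested.

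Markers of other tissues in which Barx2 is known were present at varied levels. The endoderm list summed to 0.585 to 13.4 CPM in wild-type and 1.12 to 17.9 CPM in double_het hearts, with medians of 1.24 and 1.58, and its defining genes Nkx2-1 and Shh were at 0 in 31 and 32 of 37 libraries. The head muscle list had medians of 1.56 CPM in wild-type, 2.14 in Isl1_het, 4.54 in Nipbl_het and 2.14 in double_het hearts, with Myf5 and Myod1 at 0 in 27 and 31 libraries. Of its 2 tested genes 1 rose in both Nipbl_het and double_het against wild-type (1.2% and 1.77% of all genes). That gene was Tbx1, a T-box factor of pharyngeal tissue and the second heart field, with medians of 0.770 CPM in wild-type, 1.01 in Isl1_het, 1.90 in Nipbl_het and 1.38 in double_het hearts and overlapping ranges. Its log2 changes were 1.38 in Nipbl_het (SE 0.35, adjusted p = 0.0322, edgeR) and 1.37 in double_het (SE 0.37, adjusted p = 0.0348), and these calls were lost on leaving out any of 9 and 10 libraries (adjusted p up to 0.0745 and 0.111). The second heart field list, like Barx2, had higher medians in both groups with Nipbl loss: 22.1 CPM in wild-type, 20.4 in Isl1_het, 30.9 in Nipbl_het and 26.8 in double_het hearts. Its ranges were 17.3 to 29.5, 15.9 to 26.3, 26.6 to 45.6 and 19.6 to 33.2 CPM in the same order. The 2 highest values, 45.6 and 45.5 CPM, were those of the library labelled Nipbl_het replicate 2 and of Nipbl_het replicate 9. The parts of head muscle and of the second heart field in the Barx2 difference were not tested. The surface epithelium list was at a median of 5.10 CPM in wild-type, 6.84 in Isl1_het, 9.37 in Nipbl_het and 10.4 in double_het hearts, and its ranges overlapped. Of its 3 tested genes 1 rose, in Nipbl_het and double_het against wild-type and in double_het against Isl1_het (1.2%, 1.77% and 0.532% of all genes). That gene was Krt14, a keratin of basal epithelial cells, which ranged from 0.273 to 1.15 CPM in wild-type, 0.170 to 1.31 in Isl1_het, 0.464 to 2.99 in Nipbl_het and 0.913 to 4.03 CPM in double_het hearts. Its medians were 0.535, 0.579, 1.58 and 1.81 CPM, so that Krt14, like Barx2, was higher in both groups with Nipbl loss, though its ranges overlapped. The log2 changes were 1.51 (SE 0.29, adjusted p = 0.00331, edgeR), 1.74 (SE 0.30, adjusted p = 0.000638) and 1.55 (SE 0.31, adjusted p = 0.00721). Grhl3, another gene of the list, was detected in every library at a median of 6.09 CPM and made up a large part of the summed level. Trp63, Krt5, Krt15, Esrp1 and Tfap2c of the same list had medians of 0.03 to 0.10 CPM and were below the filter. The part of surface epithelium in the Barx2 difference was not tested.

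By these permutation p-values, which are somewhat too small, Barx1 passed with 2 lists. It varied with the 12 markers of pharyngeal arch mesenchyme (r = 0.48, rho = 0.41, permutation p = 0.00317 and 0.0125, adjusted p = 0.0412 over 26) and with the 8 liver markers (r = 0.59, rho = 0.33, permutation p = 0.00258 and 0.0473, adjusted p = 0.0412). Prrx2, at a median of 66.1 CPM, held most of the arch list's summed level, whose median in wild-type was 79.7 CPM; with equal weight for each of the 12 genes (mean log2 CPM) the r was 0.28 and did not pass (adjusted p = 0.268), and that with the liver list was 0.54 and did not pass either (adjusted p = 0.0730). Without the 2 libraries farthest in Barx1 the r by summed CPM were 0.31 and 0.17, so both were lower without those libraries. Without Nipbl_het replicate 9 alone the r with the liver list was -0.02, while that with the arch list was 0.46 (adjusted p = 0.0675); neither passed. Without the library labelled Nipbl_het replicate 2 the r with the arch list was 0.34 (adjusted p = 0.175). In turn, 3 lists passed with Barx1 without that library: head muscle (0.50), the second heart field (0.47) and liver (0.60), each with an adjusted p of 0.0235. Without Nipbl_het replicate 9, 1 list passed, that of neural crest and neurons (0.60, adjusted p = 0.0026; 0.45 and 0.0811 in all libraries). In all libraries with only genotype removed, the arch list passed with Barx1 (0.63, permutation, adjusted p = 0.00104). So did the liver list (0.50, adjusted p = 0.0483) and the foregut mesenchyme list (0.41, adjusted p = 0.0483).

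Nipbl_het replicate 9 was the highest library of all 37 in 8 genes inspected for this reason. Afp, the fetal liver protein, was at 301 CPM against a median of 0.214 in the other libraries. Apoa1 was at 19.3, Apoa2 at 17.0 and Ttr at 8.50 CPM, against medians of 0.202, 1.83 and 0.655. The foregut mesenchyme genes Foxf1 and Hlx were at 6.79 and 13.2 CPM, against 0.834 and 1.48. Lhx2, of the head muscle list, was at 9.00 against 0.736, and Barx1 was at 15.7 against 3.16. Of the 8 foregut mesenchyme genes, Tbx4 and Gli1 were also highest here, while Foxf2, Nkx3-2, Osr1 and Wnt2 were highest in other libraries. Of the 13 lists 4 had their highest summed level in this heart: liver, foregut mesenchyme (81.7 against 69.0 CPM in the next), head muscle (15.5 against 7.39 CPM) and surface epithelium (15.5 against 15.2 CPM). The pharyngeal arch mesenchyme and second heart field lists were 2nd of 37 here, and Myf5, Myod1, Myog and Msc were also at their highest. Barx2 in the same heart was at 4.16 CPM, 9th of 37, within the range of the other Nipbl_het hearts. The part of attached tissue in its Barx1 level was not tested.

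**Figure D5:**
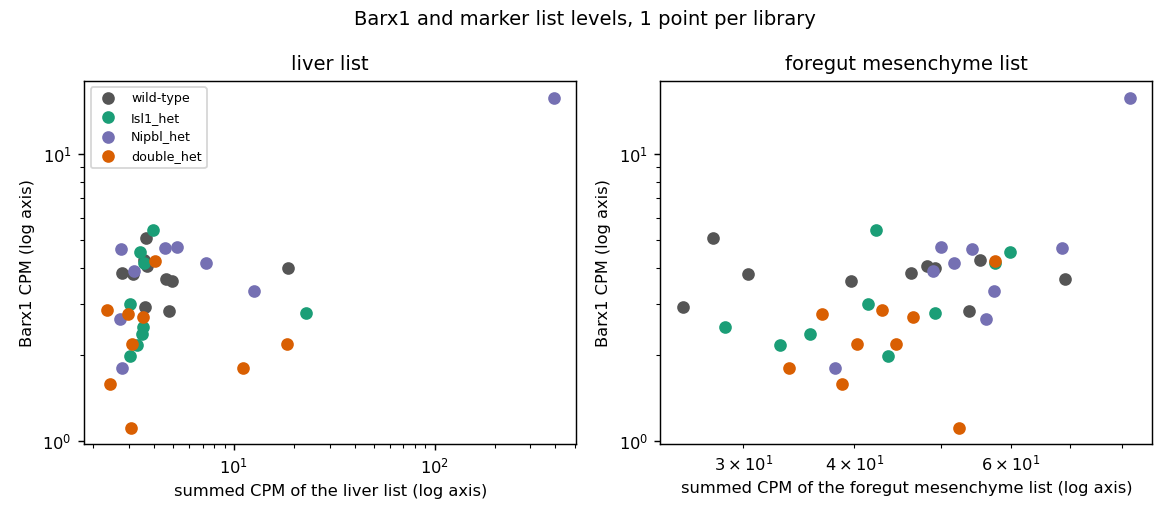
Barx1 in CPM (vertical, log axis) against the summed CPM of the liver markers (left) and the foregut mesenchyme markers (right), both on log axes, with 1 point per library coloured by genotype. Nipbl_het replicate 9 lies alone at 15.7 CPM of Barx1 with 393 CPM of liver and 81.7 CPM of foregut mesenchyme markers.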

How the data were processed

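The file deposited by the authors holds raw counts, with libraries in columns and gene symbols in rows. Per the submitters' processing notes, STAR and featureCounts were used with GRCm38 (mm10); versions, strand setting and filters are not given in the sources used here. Genes were filtered with filterByExpr (minimum count 10, minimum total 15), which 15046 genes and both Barx genes passed, and 0 other columns of values were present. TMM-scaled counts entered 1 quasi-likelihood fit of edgeR 4.0.16 (limma 3.58.1, R 4.3.3) over all 37 libraries, with genotype and set number as factors. Double_het replicate 2 is alone in set 7 and is fitted exactly, which leaves 8 double_het libraries to inform its comparisons. All tests are two-sided, with Benjamini-Hochberg adjustment over all genes and a threshold of 0.05, and standard errors were computed from the F statistic.

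Genes following Barx2 or Barx1 were tested with limma on log2 CPM (prior count 2) with the gene as a further term. Correlations used residuals and 100000 permutations, and lists were adjusted over 26 pairs. The permutations took no account of the degrees of freedom spent on genotype and set, so their p-values are somewhat too small. Named were both Barx genes, Nipbl and Isl1, the 10 highest and 5 lowest correlations with Barx2 and 5 highest with Barx1 (mean log2 CPM of at least 0, same sign in each genotype, not sex-linked), and list members or neighbours past the threshold or defining a list. Nearest neighbours, Susd3, Fli1, Ets1, Sfrp1, Sfrp2 and the genes read in Nipbl_het replicate 9 were added after their values were seen. The genes, lists and rules were chosen with earlier results of these data known. Tests had been planned for 4 Barx2 comparisons; their p-values are not given, because the groups compared had entered the choice of the gene. Exon lengths and positions are from GENCODE M21, matched for 24366 symbols. Models were tested on simulated data. None of 153 pairs of libraries of 1 genotype came within sampling noise (chi-square over degrees of freedom at least 7.36), and no library was counted as a duplicate. Alternatives were no set term, the replicate number in place of the set, DESeq2 1.42.0 and DESeq2-style size factors. Others were no filter on low counts, a prior count of 0.5, and each set or library left out. Added after seeing the data were removal of the gene length index, follower tests without each library and the checks without Nipbl_het replicate 9. So were the within-set and ratio values without Nipbl_het replicates 2 and 9. Figures used matplotlib 3.10.9.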

Additional observations from a re-analysis of the deposited data

Results flagged for a closer look

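Within each genotype the highest and lowest library was compared with the rest for Barx2, Barx1, Nipbl and Isl1, and 4 of 16 gene and genotype pairs had a library far from the others (chance alone gives about 1 in 20). Barx2 was at 7.69 CPM in double_het replicate 3, and the next double_het library was at 5.47 CPM. Barx1 was at 15.7 CPM in Nipbl_het replicate 9, and the next Nipbl_het library was at 4.75 CPM. Nipbl was at 72.4 CPM in the library labelled Nipbl_het replicate 2, and the next was at 44.9 CPM. Isl1 was at 13.0 CPM in wild-type replicate 7, and the next wild-type library was at 8.81 CPM.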

How the results depend on the processing

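The Barx2 change of Nipbl_het against wild-type lay between 1.07 and 1.54 under the alternatives run, and between 1.13 and 1.42 with each library left out. The double_het values of Barx2 lay between 1.41 and 1.83 against wild-type and between 1.67 and 2.14 against Isl1_het. No comparison of Barx1 passed under any of them. Barx1 in double_het minus Isl1_het changed sign, to 0.0099 without set 1, 0.11 without set 5 and 0.0060 without Isl1_het replicate 8 (-0.18 to 0.0060 with each library left out). From -0.07 in the main fit it also moved the other way. It was -0.44 with no set term, -0.45 with the replicate number in place of the set and -0.35 without set 2. The cause of these shifts was not tested.

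Counts of genes called moved more. Nipbl_het minus wild-type had 258, and 467 with no set term, 459 with DESeq2, 118 without set 1, 31 without set 2, 124 without set 5 and 167 to 410 with each library left out (lowest without Nipbl_het replicate 9, highest without Nipbl_het replicate 2). Double_het minus wild-type had 391, and 235, 113, 67 and 223 without sets 1, 2, 5 and 6 and 244 to 839 with each library left out. Double_het minus Isl1_het had 144, and 234 with DESeq2, 74, 22, 12 and 80 without those sets and 73 to 361. Isl1_het minus wild-type had 0, and 11 with DESeq2 and 0 to 2. Fewer libraries entered each fit that left out a set or library.

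The genes following Barx2 numbered 27 without set 1, 1331 without set 2, 0 without set 5, 0 without set 6 and 0 to 2653 with each library left out. List pairs past the threshold numbered 7 of 26 with only genotype removed, 0 with mean log2 CPM of the list members and 1 to 4 without Nipbl_het replicate 9 or 2. The epicardial and endoderm lists had r = -0.21 and r = -0.14 with Barx2 when only genotype was removed, the cardiomyocyte list had r = -0.024 by mean log2 CPM (0.15 by summed CPM), and the liver list had r = -0.017 with Barx1 without Nipbl_het replicate 9 and 0.60 without Nipbl_het replicate 2. The Wt1 call of Nipbl_het was lost without set 2, 5 or 6 (adjusted p up to 0.227) and that of double_het without set 5 (0.106), and those of Krt14 without set 2, in double_het minus Isl1_het also without set 5 (up to 0.296). Also lost were the double_het calls of Upk3b without set 5 (0.215), Sema3d without set 5 or 6 (up to 0.532), Tbx18 without set 2, 5 or 6 (up to 0.303), Upk1b without any 1 of these sets or set 1 (up to 0.483) and Tbx1 without set 1 or 2 (up to 0.628). In Nipbl_het the call of Isl1 was lost without set 1, 2 or 6 (up to 0.188), and those of Tbx1 and Hlx without set 1, 2 or 5 or with the replicate block (up to 0.312 and 0.363). The 3 Acan calls were lost without set 2 or 5 (adjusted p up to 0.398), that of Nipbl_het also without set 1 (0.0532), and that of Lef1 without set 2 or 6 (0.147 and 0.0936).

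Genotypes share replicate numbers in the titles, but of 9 shared numbers 0 had every pair of libraries correlated above 0.1, and 3 of 37 libraries correlated best with their own number, so the numbers were not read as pairs. With the replicate number as a block in place of the set, the Barx2 change of Nipbl_het was 1.07, Barx1 in double_het minus wild-type was -0.76 (adjusted p = 0.102), and double_het minus wild-type had 610 genes called. DESeq2-style size factors shifted the median of all genes by at most 0.02. Low counts limit the precision of both genes.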
